A study of Schizosaccharomyces pombe with 9 samples.

Results

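The comparison set both inositol pyrophosphate mutants of the fission yeast Schizosaccharomyces pombe together against the wild type (WT). It asked which transcripts sit on the same side of WT whether the pathway is changed by removing the phosphatase Aps1 or by the D333A allele of asp1, which alters the kinase domain of Asp1. The groups were 3 libraries of WT (laboratory strain JS 77, replicates 4, 5 and 6), 3 of an aps1 deletion (aps1∆, strain AS 1884, replicates 1, 2 and 3) and 3 of asp1-D333A (strain AS 2192, replicates 1, 2 and 3). All were in log phase, in vegetative growth, in YES, a rich medium, at 30 °C, and poly(A)+ RNA was sequenced. Of 6986 feature identifiers in the deposited count table, 6147 passed the filter on low counts. A feature was described here when the average of the mutant group means differed from WT (adjusted p under 0.05 by edgeR's quasi-likelihood test, Benjamini-Hochberg adjusted over all features tested) and when all 6 mutant libraries lay above, or all 6 below, all 3 WT libraries in CPM, the counts scaled to a common library size with TMM factors. Both conditions were met by 7.4% of the 6147 features (3.09% higher, 4.31% lower). After setting aside the mitochondrial and ribosomal RNA identifiers (SPMIT, SPRRNA) and the deleted gene aps1, 439 remained: 352 coding genes, 85 non-coding features, 1 pseudogene and 1 identifier without annotation. Below, the average means the mean of the log2 fold change of aps1∆ and that of asp1-D333A, each against WT. It is not the log2 fold change of the mean level of the mutants. No overlap means that all mutant libraries lie on one side of WT.

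Inositol pyrophosphates are small signalling molecules in which an inositol ring carries diphosphate groups. Asp1 has a kinase domain that makes them and a phosphatase domain that removes them, and Aps1 is a separate phosphatase that breaks them down. They are known in this yeast for setting the expression of phosphate uptake genes, where transcription of upstream non-coding RNA interferes with the gene downstream. Log-phase cells in rich medium are also kept out of the sexual programme, which nitrogen starvation opens through the transcription factor Ste11 and the RNA-binding protein Mei2. Levels in CPM are not divided by gene length, so they are compared between libraries and not between genes.

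Library totals ran from 18244492 to 22999732 counts, and coding genes took between 98.3% and 98.9% of them. The strains carried the labelled change at aps1: its level was 147, 129 and 131 CPM in WT, 11.4, 7.60 and 8.39 in aps1∆ and 83.2, 85.4 and 84.1 in asp1-D333A. It was also lower in asp1-D333A, with a log2 fold change against WT of -0.69 (adjusted p = 7.18e-05). For asp1, which in asp1-D333A has an altered codon and not a deletion, the levels were 47.97, 48.1 and 52.6 CPM in WT, 65.4, 62.3 and 60.5 in aps1∆ and 48.7, 49.9 and 66.1 in asp1-D333A, and the average of the mutants did not pass the test (log2 fold change 0.24, adjusted p = 0.068). The set-aside mitochondrial and ribosomal RNA identifiers took 0.0559% to 0.0713% of counts in WT, 0.00487% to 0.0125% in aps1∆ and 0.00803% to 0.0194% in asp1-D333A. Of the 22 of these that were tested, 14 were called lower and 1 higher with no overlap between mutant and WT libraries, and the part of this difference between libraries in the values below was not tested. The labels give WT the replicate numbers 4 to 6 and the mutants 1 to 3 and do not say whether the libraries were prepared together, so a difference between WT and mutant strains and one between preparations cannot be told apart. They also do not say whether replicates were separate cultures, so p-values measure the spread between these samples, which may be technical. Replicate 3 of asp1-D333A stood farthest from its group, with a chi-square statistic per gene of 61.7 and 74.7 against replicates 1 and 2, while the 7 other pairs within a group had 4.23 to 19.9.

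Averaged over the mutants, 1829 of the 6147 features (29.8%) were called, 676 higher (11%) and 1153 lower (18.8%). Higher features thus made up 37.0% of the calls, a share that was 56.2% with upper-quartile scaling and 47.5% with scaling by total counts alone. Among coding genes 10.9% were called higher and 20.1% lower. Of the 1543 called coding genes other than aps1, 352 (22.8%) had all 6 mutant libraries on one side of WT. Of the other 1191, 675 had fitted changes of opposite sign in the mutants, 516 of the same sign, and 1116 had the larger change in asp1-D333A. Phosphate genes were among those of opposite sign. The log2 fold change of pho1, which encodes the secreted acid phosphatase, was 1.71 in aps1∆ and -4.39 in asp1-D333A, and that of pho84, a phosphate transporter gene, was 1.43 in aps1∆ and -3.84 in asp1-D333A. None of the 7 phosphate genes listed was among the 352. A phosphate transporter gene outside that list, pho843, was among them, higher in every mutant library (average 0.82). The 11 iron uptake genes and regulators also had none among the 352, and 5 of them were called higher on average. The average of 2.52 for the siderophore transporter gene str3 combined -0.84 in aps1∆ and 5.88 in asp1-D333A. Its change in aps1∆ did not pass its own test in edgeR (adjusted p = 0.231).

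The 352 coding genes split into 161 with every mutant library higher than WT (3.23% of the 4979 coding genes tested) and 191 with every mutant library lower (with aps1 included, 3.86%). Most differences were small. The median log2 fold change of the average was 0.33 for the higher genes, over a range of 0.14 to 3.23, and -0.35 for the lower genes, with sizes from 0.16 to 2.08, beside a median of -0.01 over all features tested. At least 2-fold change on average was reached by 11 higher and 13 lower genes, and at least 2-fold change in each mutant by 6 and 6. When each mutant was tested against WT on its own, 64 of the higher and 89 of the lower genes were called in aps1∆, beside 16.6% of all features. In asp1-D333A 149 and 179 were called, beside 61.1% of all features. Called in both mutants were 55 of the higher and 77 of the lower genes. The aps1∆ and asp1-D333A were themselves called different for 71 of the higher genes and 120 of the lower, beside 68.8% of all features. Among these, asp1-D333A lay further from WT than aps1∆ for 64 and 109 genes. Both mutant contrasts share the 3 WT libraries, so their values are given side by side.

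**Figure D1:**
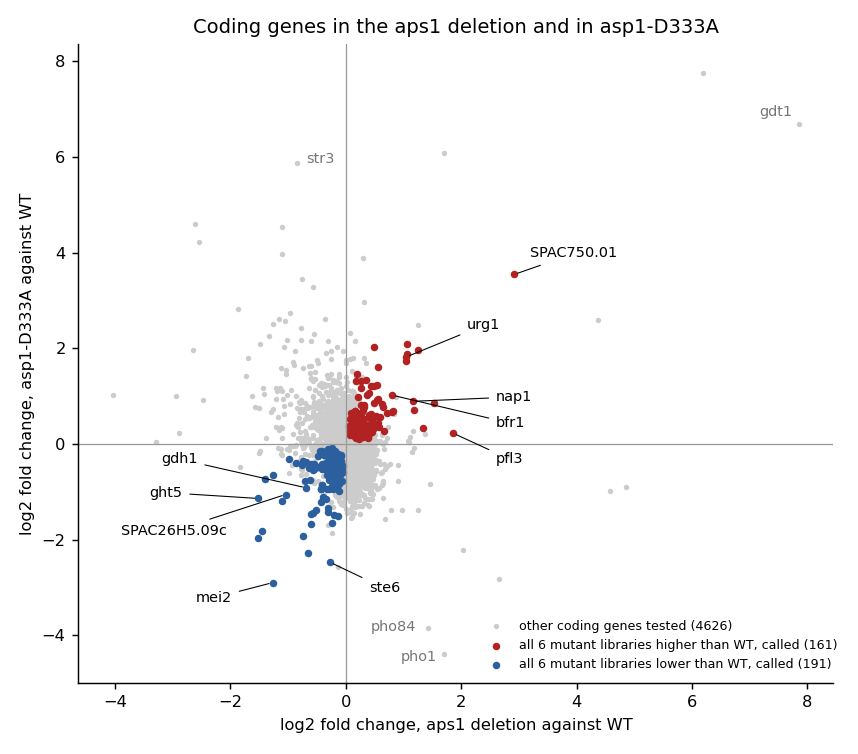
Each point is a coding gene; the horizontal axis is its log2 fold change in aps1∆ against WT and the vertical axis that in asp1-D333A against WT. The 161 coding genes with all mutant libraries higher than WT lie at the upper right of the origin and the 191 lower genes at its lower left, most of them close to it, while pho1, pho84 and str3 lie where the changes have opposite signs.

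The number of genes depends on how the mutants are combined. When the 6 mutant libraries were treated as 1 group, so that the difference between the mutants entered the spread, 20 features were called, 6 higher and 14 lower, and 593 had an unadjusted p under 0.05 in edgeR. Among these 20 were 11 of the 352 coding genes: nap1, bfr1, xpa1, gpi12 and SPAPB24D3.07c, higher, and ght5, gdh1, SPAC26H5.09c, SPBC1A4.04, SPBPB7E8.02 and SPCC1235.18, lower. The same 11 kept their call and their side of WT under all 17 settings run, and no coding gene among the 352 had a fitted average of the other sign under any of them. Under all 3 other scalings and all 9 fits that left out 1 library, 71 of the 161 higher and 96 of the 191 lower coding genes kept both. At the border of the no-overlap rule, the highest mutant library of nbl1, a lower gene, and its lowest WT library were both at 16.7 CPM after rounding. Equally close, mrpl33 fell outside it, with 29.3 CPM in aps1∆ replicate 3 and 29.3 in WT replicate 4.

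**Figure D2:**
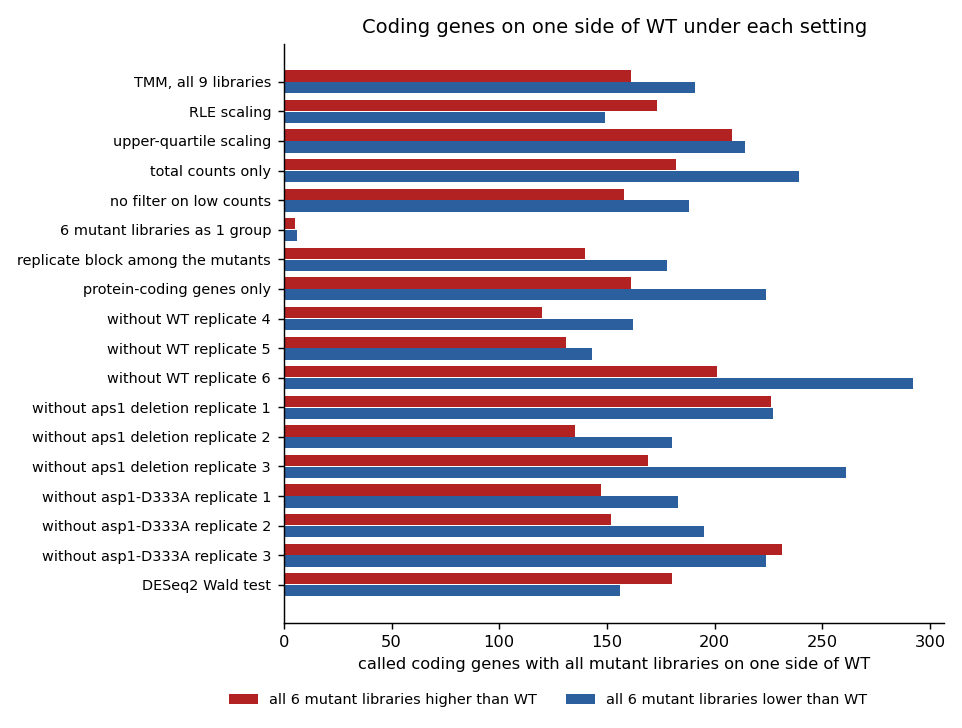
Bars give the number of coding genes called with all mutant libraries higher (red) or lower (blue) than WT, for each processing setting on the vertical axis. The counts run from 120 to 231 higher and from 143 to 292 lower, except with the 6 mutant libraries as 1 group, where they are 5 and 6.

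Of the 352 coding genes, 199 overlap another annotated feature, 184 of them one on the opposite strand, so that part of their counts may belong to a partner. Among the higher genes, nap1 rose about 2-fold in both mutants. It encodes the Nap1 chaperone of histones H2A and H2B, and its level was 244, 254 and 256 CPM in WT, 528, 573 and 585 in aps1∆ and 445, 445 and 510.1 in asp1-D333A. The mutant libraries did not come near the WT libraries, and the average log2 fold change was 1.03 ± 0.06 (SE, adjusted p = 2.81e-07). It was 1.16 in aps1∆ and 0.89 in asp1-D333A, a difference between the mutants with an adjusted p of 0.00397. The gene bfr1, for the efflux pump that exports brefeldin A, was at 291, 279.9 and 300.0 CPM in WT, 503, 484 and 533 in aps1∆ and 624, 578 and 566 in asp1-D333A, with every mutant library more than 1.5-fold above the WT mean and an average of 0.91 ± 0.06 (SE, adjusted p = 3.30e-07). For xpa1, an X-Pro dipeptidase gene, the levels were 32.2, 32.6 and 30.1 CPM in WT, 48.5, 54.1 and 52.4 in aps1∆ and 49.4, 51.7 and 47.6 in asp1-D333A. Its changes of 0.71 in aps1∆ and 0.65 in asp1-D333A were not shown to differ (adjusted p = 0.518), and the average was 0.68 ± 0.07 (SE, adjusted p = 3.83e-05); a coding gene, SPBC18A7.02c, overlaps it on the opposite strand. The uncharacterized gene SPAPB24D3.07c had an average of 0.76 ± 0.08 (SE, adjusted p = 4.07e-05), with levels of 176, 204 and 202 CPM in WT, 296, 365 and 368 in aps1∆ and 288, 314 and 340.2 in asp1-D333A. The gene gpi12, for an enzyme of glycosylphosphatidylinositol anchor synthesis, was at 21.9, 20.6 and 22.99 CPM in WT, 30.9, 31.97 and 31.4 in aps1∆ and 31.4, 32.3 and 35.2 in asp1-D333A and averaged 0.56 ± 0.08 (SE, adjusted p = 0.000222).

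Among the genes that were lower, ght5 encodes the high-affinity glucose transporter of the plasma membrane. Its level was 191, 153 and 203 CPM in WT, 61.4, 66.3 and 63.6 in aps1∆ and 86.2, 88.9 and 73.5 in asp1-D333A. All mutant libraries lay below 100 CPM and all WT libraries above 150, and the average log2 fold change was -1.33 ± 0.08 (SE, adjusted p = 2.81e-07), made up of -1.52 in aps1∆ and -1.14 in asp1-D333A, which differed from each other (adjusted p = 0.00441). The next coding gene on the chromosome, the uncharacterized SPCC1235.18, picked out after its values were seen, was lower too, but at only 26, 34 and 37 counts in WT, 12, 12 and 9 in aps1∆ and 9, 9 and 13 in asp1-D333A; its average was -1.75 ± 0.24 (SE, adjusted p = 0.000238). The gene SPAC26H5.09c, for an oxidoreductase of the Gfo/Idh/MocA family, was at 748, 830.4 and 769 CPM in WT, 311, 412 and 416 in aps1∆ and 392, 409 and 328 in asp1-D333A. Its changes were -1.04 in aps1∆ and -1.06 in asp1-D333A (adjusted p of the difference = 0.923), with an average of -1.05 ± 0.09 (SE, adjusted p = 8.17e-06). For gdh1, the NADP-dependent glutamate dehydrogenase that assimilates ammonium, levels were 1024, 1142 and 1135 CPM in WT, 608, 700.0 and 737 in aps1∆ and 582, 579 and 590.3 in asp1-D333A. All mutant libraries lay below 750 CPM and all WT libraries above 1000, and the average was -0.80 ± 0.07 (SE, adjusted p = 5.02e-06), with -0.69 in aps1∆ and -0.91 in asp1-D333A (adjusted p of the difference = 0.0234). The gene gdh1 overlaps SPCC622.13c on its own strand and SPCC622.11 on the other. A pair of further genes, chosen after their values were seen because their call held with the mutants as 1 group, were SPBPB7E8.02, for a protein of the PSP1 family (-0.57 ± 0.06 SE, adjusted p = 4.16e-05), and the uncharacterized SPBC1A4.04 (-0.45 ± 0.05 SE, adjusted p = 4.07e-05).

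**Figure D3:**
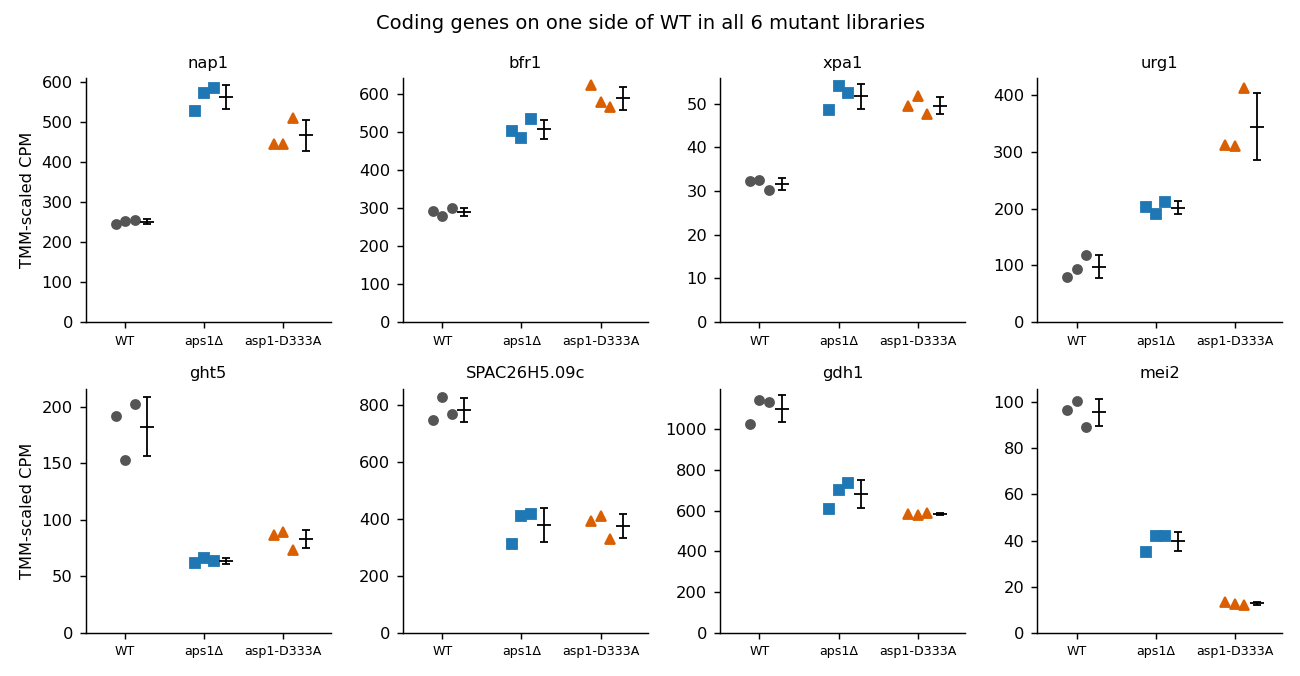
TMM-scaled CPM (vertical axis, from 0) of 8 coding genes in each library, with WT as grey circles, aps1∆ as blue squares and asp1-D333A as orange triangles; black marks give the mean and SD of 3 libraries. The mutant libraries of nap1, bfr1, xpa1 and urg1 lie above all WT libraries and those of ght5, SPAC26H5.09c, gdh1 and mei2 below them, and mei2 is lower in asp1-D333A than in aps1∆.

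The largest average fall among the 191 lower coding genes was that of mei2, the gene for the RNA-binding protein that switches cells from growth to meiosis. Its level was 96.5, 101 and 89.4 CPM in WT, 34.9, 42.1 and 41.97 in aps1∆ and 13.6, 12.6 and 12.3 in asp1-D333A. The 3 strains did not overlap, with asp1-D333A lowest; the log2 fold changes were -1.27 in aps1∆ and -2.90 in asp1-D333A and the average was -2.08 ± 0.08 (SE, adjusted p = 1.35e-09). The difference between the mutants passed the test (adjusted p = 1.72e-08). In RNA from a whole culture, fewer cells expressing a gene and less RNA per cell cannot be told apart. The gene for Ste11, the transcription factor that activates mei2 and the mating genes, was lower by less, at 77.3, 68.7 and 63.4 CPM in WT, 52.5, 56.4 and 55.7 in aps1∆ and 32.2, 35.97 and 26.6 in asp1-D333A, with an average of -0.75 ± 0.09 (SE, adjusted p = 9.41e-05). The annotated repressor RNA of ste11, the non-coding RNA rse1, was also lower, with an average of -0.43 ± 0.07 (SE, adjusted p = 0.00081). It was picked out after its values were seen. On the opposite strand it overlaps cyc3, which was not called in edgeR (0.19, adjusted p = 0.134).

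Of 16 mating and pheromone genes, 9 were called lower on average and none higher, beside 20.1% and 10.9% of coding genes, and 7 had every mutant library below WT, beside 3.86%. The median over the 16 was -0.34 for the average, -0.19 in aps1∆ and -0.47 in asp1-D333A. These were mfm1 and mfm2, precursors of the M-factor pheromone, mam1, its exporter, mam2, the receptor for the partner's P-factor, gpa1, the G protein alpha subunit behind that receptor, ste6, which in this yeast is the exchange factor that activates Ras1, and map1, a MADS-box transcription factor. The level of mfm2 was 139, 139 and 150.1 CPM in WT, 121, 125 and 126 in aps1∆ and 47.9, 54.8 and 50.9 in asp1-D333A, with an average of -0.84 ± 0.06 (SE, adjusted p = 4.35e-07). For mam2 it was 14.9, 14.3 and 15.4 CPM in WT, 11.98, 10.8 and 10.9 in aps1∆ and 7.01, 7.50 and 6.19 in asp1-D333A, with an average of -0.76 ± 0.09 (SE, adjusted p = 0.000104). For ste6 aps1∆ lay just under WT and asp1-D333A far below it, at 39.1, 36.6 and 35.3 CPM in WT, 28.9, 28.7 and 34.1 in aps1∆ and 6.15, 6.43 and 7.38 in asp1-D333A. It overlaps SPCC1442.02 on the same strand. Its log2 fold changes were -0.27 in aps1∆ and -2.47 in asp1-D333A, of which that in asp1-D333A passed its own test (adjusted p = 2.88e-09) and that in aps1∆ did not (adjusted p = 0.0789). In aps1∆ alone only map1 and mam2 of the 7 passed (adjusted p = 0.0406 and 0.0245), while mfm1, mfm2, mam1 and gpa1 had adjusted p-values from 0.0517 to 0.128; in asp1-D333A all 7 passed. The low-abundance gene mfm1 had 71, 55 and 55 counts in WT, 38, 44 and 32 in aps1∆ and 13, 14 and 20 in asp1-D333A, and averaged -1.47 ± 0.21 (SE, adjusted p = 0.000254). The averages were -1.01 ± 0.15 (SE, adjusted p = 0.000309) for map1, -0.48 ± 0.07 (SE, adjusted p = 0.000432) for mam1 and -0.34 ± 0.05 (SE, adjusted p = 0.000555) for gpa1. Opposite map1 lies SPNCRNA.1067 and opposite gpa1 lies SPNCRNA.1503, both also lower in every mutant library (averages -0.89 and -0.31). The genes fus1, mfm3, sxa1, sxa2, map2, map3 and map4 did not pass the test on the average.

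The signalling chain from the G protein to the MAP kinase was looked at after these values had been seen. Of its 8 genes, 7 were called lower on average and none higher, and 5 had every mutant library below WT, beside 20.1%, 10.9% and 3.86% of coding genes. The median over the 8 was -0.43 for the average, -0.17 in aps1∆ and -0.64 in asp1-D333A. The 5 were gpa1, ste6, the GTPase gene ras1, the exchange factor gene scd1 and the MAP kinase gene spk1. In aps1∆ alone only spk1 of the 5 passed the test in edgeR (adjusted p = 0.000971). The others had adjusted p-values from 0.0745 to 0.203 there, while in asp1-D333A all 5 passed. The MAP kinase gene spk1 was at 67.1, 72.4 and 66.9 CPM in WT, 43.4, 43.8 and 49.2 in aps1∆ and 26.4, 26.9 and 21.9 in asp1-D333A. Each strain formed its own band, and the average was -1.03 ± 0.08 (SE, adjusted p = 2.34e-06); spk1 overlaps SPAC31G5.08 on the opposite strand. The remaining chain members ste4 and byr1 were called lower with overlapping libraries, at -0.62 and -0.26, and byr2 had a log2 fold change of 0.07 (adjusted p = 0.551). For ras1 the average of -0.17 ± 0.06 (SE, adjusted p = 0.0477) lay at the threshold. Its call was lost in 12 of 17 settings, among them leaving out any 1 WT library, aps1∆ replicate 2 or 3 or asp1-D333A replicate 1 (between -0.18 and -0.11). The average of scd1 was -0.52 ± 0.07 (SE, adjusted p = 0.000183), and its libraries overlapped WT under 2 settings.

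**Figure D4:**
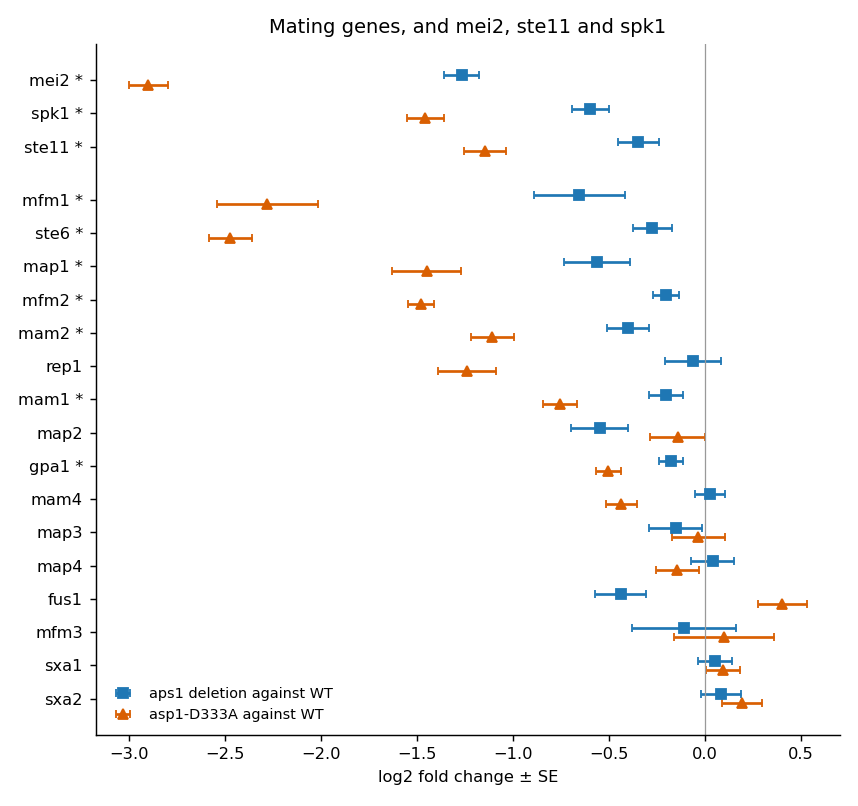
Log2 fold change against WT (horizontal axis, points with SE bars) of mei2, spk1 and ste11 and of the 16 mating genes, in aps1∆ (blue squares) and in asp1-D333A (orange triangles); an asterisk marks genes with all 6 mutant libraries below WT. For mei2, ste6, mfm1 and mfm2 the asp1-D333A point lies further below 0 than aps1∆ point, and the points of fus1 lie on opposite sides of 0.

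Of 6 listed meiotic transcripts that Mmi1 removes in growing cells, only rec8 was called. This gene, for the meiotic cohesin subunit, had 7, 4 and 1 counts in WT, 13, 8 and 8 in aps1∆ and 15, 17 and 29 in asp1-D333A. Its average of 1.61 ± 0.48 (SE, adjusted p = 0.0223) was no longer called without WT replicate 5, without WT replicate 6, without aps1∆ replicate 1 or with the mutants as 1 group, where it ranged from 1.15 to 1.65. A gene chosen after its values were seen, dmc1, for the meiotic strand exchange protein, had 46, 46 and 36 counts in WT, 15, 19 and 12 in aps1∆ and 22, 16 and 7 in asp1-D333A, with an average of -1.64 ± 0.30 (SE, adjusted p = 0.0015). All these values rest on fewer than 50 counts per library.

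The uracil-regulated genes urg1, urg2 and urg3 lie side by side on chromosome I, and all 3 were higher in every mutant library. They are known as genes that uracil in the medium switches on, and urg1 is annotated as a GTP cyclohydrolase II and urg2 as a putative uracil phosphoribosyltransferase. The level of urg1 was 79.5, 94.4 and 119 CPM in WT, 203, 189.7 and 212 in aps1∆ and 312, 309.6 and 413 in asp1-D333A, and its average log2 fold change was 1.43 ± 0.14 (SE, adjusted p = 6.80e-05). That of urg2 was 138, 166 and 205 CPM in WT, 356, 320.2 and 374 in aps1∆ and 469.6, 542 and 681 in asp1-D333A, with an average of 1.39 ± 0.15 (SE, adjusted p = 0.000122). Both were highest in asp1-D333A, and the difference between the mutants passed the test (adjusted p = 0.000829 and 0.00269). The rise of urg3 was smaller, from 187, 205 and 208 CPM in WT to 268, 265 and 267 in aps1∆ and 289, 313 and 318 in asp1-D333A, with an average of 0.51 ± 0.05 (SE, adjusted p = 3.54e-05). Within WT, urg1 and urg2 were lowest in replicate 4 and highest in replicate 6.

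Other genes of uracil and uridine salvage, listed after these values were seen, did not all follow. Of 11 genes including the 3 above, 6 were called higher and 2 lower, beside 10.9% and 20.1% of coding genes, and 5 and 2 had no overlap, beside 3.23% and 3.86%. The uracil phosphoribosyltransferase gene uck2 was higher in all mutant libraries, at 41.9, 43.9 and 52.9 CPM in WT, 60.95, 60.7 and 66.2 in aps1∆ and 84.6, 96.03 and 142 in asp1-D333A, with an average of 0.83 ± 0.15 (SE, adjusted p = 0.00204). The change of uck2 in aps1∆, 0.44, did not pass its own test in edgeR (adjusted p = 0.103). The cytosine deaminase gene SPCC965.14c was at 22.4, 17.96 and 19.6 CPM in WT, 31.3, 32.1 and 26.7 in aps1∆ and 33.5, 32.01 and 22.9 in asp1-D333A and averaged 0.58 ± 0.13 (SE, adjusted p = 0.00403). In contrast urk1, for a uridine kinase, was lower at -0.19 ± 0.05 (SE, adjusted p = 0.0115), as was SPAC1B3.01c, another uracil phosphoribosyltransferase gene, at -0.32 ± 0.05 (SE, adjusted p = 0.000495). The uracil permease gene fur4 had a log2 fold change of -0.11 (adjusted p = 0.266). The call of urk1 was lost in 5 of 17 settings, among them leaving out WT replicate 4 or 5 (between -0.19 and -0.13), while those of urg1, urg2, urg3, uck2, SPCC965.14c and SPAC1B3.01c were lost only with the mutants as 1 group. The uracil synthesis gene ura4 had 0 counts in each of the 9 libraries.

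In carbon metabolism, 6 of 14 glucose-repressed genes and hexose transporters were called lower on average and 2 higher, beside 20.1% and 10.9% of coding genes. The 2 higher, both with overlap, were fbp1, for fructose-1,6-bisphosphatase (0.52, adjusted p = 0.00808 in edgeR), and inv1, for invertase (0.63, adjusted p = 0.00126). Their changes were 0.20 and -0.12 in aps1∆ and 0.84 and 1.39 in asp1-D333A. Every mutant library lay below WT for 3 (3.86% of coding genes), ght5, dak1 and rst2. The dihydroxyacetone kinase genes dak1 and dak2 were both lower. The level of dak2 was 55.1, 60.2 and 61.02 CPM in WT, 35.4, 39.2 and 41.6 in aps1∆ and 15.6, 16.5 and 22.96 in asp1-D333A, so that asp1-D333A was lowest and aps1∆ between it and WT. Its average was -1.14 ± 0.11 (SE, adjusted p = 1.44e-05), and that of dak1 was -0.54 ± 0.05 (SE, adjusted p = 2.48e-05). The change of dak1 was -0.91 in asp1-D333A and -0.17 in aps1∆, where it did not pass its own test in edgeR (adjusted p = 0.0827). Of 6 genes of glycerol and dihydroxyacetone metabolism, listed after these values were seen, dak1, dak2 and gut2 were called lower. The gene gut2, for the mitochondrial glycerol-3-phosphate dehydrogenase, was at 88.4, 88.6 and 71.9 CPM in WT, 54.96, 67.5 and 63.2 in aps1∆ and 50.6, 47.3 and 32.8 in asp1-D333A. Its average was -0.68 ± 0.12 (SE, adjusted p = 0.00145). The 3 others, gld1, gpd1 and gpd2, did not pass the test. The zinc finger factor gene rst2, which acts in glucose starvation, had changes of -0.23 in aps1∆ and -0.23 in asp1-D333A and an average of -0.23 ± 0.06 (SE, adjusted p = 0.012), which lost its call without WT replicate 4 or 5 (between -0.23 and -0.21) and its lack of overlap with upper-quartile or total-count scaling. The glycolytic gene tdh1, for glyceraldehyde-3-phosphate dehydrogenase, was the only 1 of 14 glycolysis and ethanol genes to be called. It was at 2444, 2616 and 2418 CPM in WT, 3009, 4432 and 4213 in aps1∆ and 3336, 3275 and 6117 in asp1-D333A. Replicates 2 and 3 of aps1∆ and replicate 3 of asp1-D333A lay above the other mutant libraries. Its average of 0.70 ± 0.21 (SE, adjusted p = 0.032) lost its call without any 1 of the WT libraries and without aps1∆ replicate 2 or 3 (between 0.65 and 0.76).

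Among 12 genes of nitrogen starvation and ammonium uptake, 3 were called higher and 4 lower, beside 10.9% and 20.1% of coding genes. Beside mei2 and ste11, those with no overlap were put4, for a proline transporter (0.29 ± 0.07 SE, adjusted p = 0.0087), and per1, for an amino acid permease (0.37 ± 0.08 SE, adjusted p = 0.004), both higher. For per1 aps1∆, at 30.6, 29.6 and 32.6 CPM, lay just above WT, at 29.3, 28.99 and 29.2, and asp1-D333A at 44.9, 50.7 and 41.9. The change of per1 in aps1∆, 0.08, did not pass its own test in edgeR (adjusted p = 0.572). In amino acid and vitamin synthesis, lys2, for the homoaconitase of lysine synthesis, averaged -0.55 ± 0.05 (SE, adjusted p = 1.82e-05). Most of this average came from a single mutant, while the other changed little. The lack of overlap of lys2 did not hold under all scalings. For thi4, whose enzyme joins the parts of thiamine, the average was -0.50 ± 0.08 (SE, adjusted p = 0.000382). Of 15 arginine and lysine genes 4 were called lower, and lys2 alone had no overlap. Of 8 thiamine genes 5 were called lower, and thi4 alone had no overlap.

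Of 173 predicted membrane transporters tested, 39 were called higher and 25 lower, beside 10.9% and 20.1% of coding genes, and 15 and 10 had no overlap with WT, beside 3.23% and 3.86%. The median of their averages was 0.03. After bfr1, the first of these were SPBC1683.12, for a nicotinic acid transporter, at 26.6, 27.1 and 28.4 CPM in WT, 38.4, 38.4 and 38.8 in aps1∆ and 51.99, 53.8 and 43.3 in asp1-D333A (0.68 ± 0.08 SE, adjusted p = 9.07e-05), and yea4, for a transporter of UDP-N-acetylglucosamine, with an average of 0.53 ± 0.08 (SE, adjusted p = 0.00029). The amino acid transporter gene dip5 was lower, at -0.53 ± 0.14 (SE, adjusted p = 0.0105), but not called without WT replicate 4 or with the mutants as 1 group (between -0.53 and -0.43). The polyamine transporter gene caf5, listed with bfr1 among 15 stress genes, was at 39.6, 35.4 and 37.1 CPM in WT, 48.1, 43.2 and 50.8 in aps1∆ and 76.9, 80.2 and 128 in asp1-D333A and averaged 0.84 ± 0.15 (SE, adjusted p = 0.00163). Its change of 0.34 in aps1∆ did not pass its own test in edgeR (adjusted p = 0.192). The genes bfr1 and caf5 were the stress genes with no overlap, while 4 of the 15 were called higher and 6 lower. Among 7 copper and zinc genes, of which 2 were called higher and 1 lower, the copper transporter gene ctr6 averaged 0.42 ± 0.07 (SE, adjusted p = 0.000683). The change of ctr6 was larger in asp1-D333A (0.68) than in aps1∆ (0.16), where it did not pass its own test in edgeR (adjusted p = 0.199).

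The flocculins are cell-surface glycoproteins that make cells stick together. Of 12 flocculin genes and their regulators tested, 4 were called higher and 1 lower, beside 10.9% and 20.1% of coding genes, and pfl3, pfl7 and pfl8 were higher in every mutant library, beside 3.23%. In contrast to most of the genes above, pfl3 and pfl8 were further from WT in aps1∆. The level of pfl3 was 55.3, 55.5 and 56.2 CPM in WT, 215, 187 and 203 in aps1∆ and 63.1, 70.8 and 61.5 in asp1-D333A. The aps1∆ was thus more than 3-fold above WT and asp1-D333A just above it, with log2 fold changes of 1.86 in aps1∆ and 0.23 in asp1-D333A and an average of 1.04 ± 0.07 (SE, adjusted p = 2.85e-07). For pfl8 the levels were 50.2, 45.8 and 53.5 CPM in WT, 100.5, 119 and 118 in aps1∆ and 85.6, 93.8 and 65.5 in asp1-D333A, with an average of 0.94 ± 0.11 (SE, adjusted p = 5.41e-05). The average of 0.34 ± 0.10 (SE, adjusted p = 0.0201) for pfl7 was not called without WT replicate 5 or 6 (between 0.32 and 0.36).

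Of the other coding genes taken by rank, SPAC27D7.09c, for a But2 family protein, was at 22.5, 28.3 and 22.1 CPM in WT, 37.7, 59.5 and 55.03 in aps1∆ and 69.97, 82.5 and 117 in asp1-D333A. The aps1∆ lay above WT and asp1-D333A above both, with an average of 1.47 ± 0.20 (SE, adjusted p = 0.000579). The gene arp6, for an actin-like subunit of the Swr1 complex that places histone H2A.Z, averaged 0.73 ± 0.13 (SE, adjusted p = 0.00113), and cao2, annotated as similar to copper amine oxidases, averaged 0.74 ± 0.15 (SE, adjusted p = 0.00214). The highest average, 3.23 ± 0.97 (SE, adjusted p = 0.0483), was that of SPAC750.01, annotated as an aldo/keto reductase, but its replicates scattered: 19, 32 and 32 counts in WT, 250, 181 and 193 in aps1∆ and 57, 911 and 279 in asp1-D333A. Its call was lost in 11 of 17 settings, among them leaving out any 1 WT library, any 1 aps1∆ library or asp1-D333A replicate 3 (between 3.06 and 3.35). The same order of asp1-D333A replicates was seen in gdt1, which did not meet the no-overlap rule, with 8, 13 and 18 counts in WT, 3019, 2892 and 3100 in aps1∆ and 11, 5008 and 229 in asp1-D333A.

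On the lower side, grt1, annotated as a transcription factor, was at 9.82, 8.73 and 7.91 CPM in WT, 5.28, 5.61 and 4.98 in aps1∆ and 1.37, 2.14 and 3.43 in asp1-D333A. Its average was -1.33 ± 0.20 (SE, adjusted p = 0.000338), with asp1-D333A furthest from WT. The averages of the next genes by rank were -0.96 ± 0.10 (SE, adjusted p = 2.91e-05) for the uncharacterized SPBC1685.17, -0.73 ± 0.12 (SE, adjusted p = 0.000634) for mug106, of the group of genes named for being upregulated in meiosis, and -0.68 ± 0.10 (SE, adjusted p = 0.00038) for gcd1, annotated as a glucose-6-phosphate dehydrogenase. For SPBC1685.17 aps1∆ was further from WT, at -1.27 in aps1∆ and -0.66 in asp1-D333A, and it overlaps SPNCRNA.1367 on the same strand. The average of hpz2, for a PARP-type zinc finger protein, was -0.55 ± 0.18 (SE, adjusted p = 0.0312), and its call was lost in 8 settings, among them leaving out WT replicate 4 or 5, aps1∆ replicate 2 or 3 or asp1-D333A replicate 1 (between -0.55 and -0.47).

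The counts of the following groups stand beside 10.9% and 20.1% of all coding genes called higher and lower, and 3.23% and 3.86% called without overlap. Of 141 cytosolic ribosomal protein genes, 44 were called lower and 5 higher, and rps2401 alone was called without overlap, and it was higher, at 0.23 ± 0.07 (SE, adjusted p = 0.0186); it was not called without WT replicate 4 or 5 (between 0.17 and 0.26). Of 42 respiratory chain and ATP synthase genes, 3 were called higher and 4 lower, and cox7 (0.41 ± 0.06 SE, adjusted p = 0.000429) and qcr10 (0.27 ± 0.05 SE, adjusted p = 0.00174), subunits of complexes IV and III, were higher without overlap. Of 15 exosome genes only mtr3 was among them, at 0.20 ± 0.07 (SE, adjusted p = 0.0458), and its call was lost in 10 settings, among them leaving out WT replicate 4 or 5, any 1 aps1∆ library or asp1-D333A replicate 2 (between 0.16 and 0.24). Of 9 sterol and hypoxia genes, 2 were called higher and 1 lower, and the sphingolipid hydroxylase gene sur2 averaged 0.27 ± 0.07 (SE, adjusted p = 0.00863) without overlap. Of the 3 inositol pyrophosphate genes listed, kcs1, for another inositol polyphosphate kinase, was called lower beside aps1, with overlap (-0.22 ± 0.05 SE, adjusted p = 0.00729). The medians over the 3 genes, which are the changes of kcs1, were 0.08 in aps1∆ and -0.52 in asp1-D333A. Chaperones (15 genes, 3 called lower), septation genes (8, with 4 lower), histone genes (10, with 2 higher and 1 lower), factors of mRNA 3′ processing (18, with 5 lower), factors acting on the Pol II tail (9, none called) and nuclear genes for the mitochondrial ribosome (11, with 2 lower) had no called gene without overlap.

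Of 1113 non-coding features tested, 27 were called with every mutant library higher than WT (2.43%) and 58 with every mutant library lower (5.21%), while 11.5% and 12.1% were called higher and lower with or without overlap. Their median log2 fold changes of the average were 0.74 and -0.69. The aps1∆ lay further from WT for 11 of the 58 lower features and asp1-D333A for 10, where the mutants were called different; for the higher features asp1-D333A did so in all 12 such cases. Of the 85 features, 59 overlap a tested coding gene on the opposite strand, in 75 pairs. The coding partner was called in the same direction in 14 pairs, in the opposite direction in 7 and not at all in 54, beside 10.9% and 20.1% of all coding genes called higher and lower. Although the libraries were stranded, the notes do not state that counting used the strand, so reads of such partners may not be told apart.

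The largest average fall among the 439 features was that of omt3, annotated as a long non-coding RNA of the Smp foci that form on chromosomes in meiosis. Its level was 30.4, 26.7 and 25.1 CPM in WT, 2.64, 2.66 and 2.17 in aps1∆ and 5.10, 5.81 and 4.62 in asp1-D333A. All mutant libraries were below 6 CPM and all WT libraries above 25, and the average log2 fold change was -2.93 ± 0.11 (SE, adjusted p = 1.35e-09), made up of -3.46 in aps1∆ and -2.40 in asp1-D333A. The non-coding RNA SPNCRNA.888, was at 20.5, 26.5 and 21.6 CPM in WT, 6.04, 7.60 and 8.50 in aps1∆ and 10.7, 12.5 and 6.83 in asp1-D333A and averaged -1.41 ± 0.16 (SE, adjusted p = 6.80e-05); it overlaps SPAC688.12c on its own strand and end4 on the other. For SPNCRNA.1675 the average was -0.99 ± 0.16 (SE, adjusted p = 0.000544). The RNAs SPNCRNA.1382 (-1.78 ± 0.29 SE, adjusted p = 0.00118) and SPNCRNA.1491 (-1.04 ± 0.25 SE, adjusted p = 0.00777) were both higher in WT replicate 4 than in the other WT libraries: SPNCRNA.1382 was at 16.96, 7.09 and 8.22 CPM and SPNCRNA.1491 at 9.20, 3.57 and 4.06. Without that library, or with the mutants as 1 group, SPNCRNA.1491 was not called (between -1.02 and -0.49).

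Among the higher non-coding features, SPNCRNA.1143 was at 20.5, 19.1 and 18.1 CPM in WT, 31.6, 38.5 and 36.3 in aps1∆ and 30.1, 31.6 and 32.2 in asp1-D333A, with an average of 0.79 ± 0.09 (SE, adjusted p = 4.18e-05). It lies opposite gud1 and cox19. Of these, cox19, for a copper chaperone, was also higher in every mutant library (0.75 ± 0.11 SE, adjusted p = 0.000254), and gud1, for a guanine deaminase, was called lower with overlap (-0.34). The call of SPNCRNA.1143, like those of omt3 and SPNCRNA.888, held with the mutants as 1 group. The average of SPNCRNA.936 was 0.88 ± 0.19 (SE, adjusted p = 0.00385) and that of SPNCRNA.511 0.95 ± 0.15 (SE, adjusted p = 0.000495).

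Small nucleolar RNAs, which guide the modification of ribosomal RNA, had 5 of 39 tested features higher in every mutant library and none lower, beside 2.43% and 5.21% of non-coding features. On average 20 were called higher and 2 lower, beside 11.5% and 12.1%. Mature small nucleolar RNAs have no poly(A) tail. The feature snR91 had 22, 20 and 25 counts in WT, 38, 31 and 39 in aps1∆ and 168, 177 and 163 in asp1-D333A, with an average of 1.64 ± 0.18 (SE, adjusted p = 4.18e-05) and changes of 0.70 in aps1∆ and 2.58 in asp1-D333A. For snoR61 the levels were 8.03, 8.37 and 7.85 CPM in WT, 12.8, 12.4 and 13.9 in aps1∆ and 15.1, 14.4 and 12.4 in asp1-D333A, with an average of 0.74 ± 0.10 (SE, adjusted p = 0.000209). The remaining 3 were snR94 (0.87 ± 0.19 SE, adjusted p = 0.00362), snoZ15 (1.06 ± 0.27 SE, adjusted p = 0.00915) and snoZ16 (1.31 ± 0.23 SE, adjusted p = 0.0011). Both snoZ15 and snoZ16 had a mean below 50 counts, and snoZ15 overlaps the coding gene pfd1 on its own strand.

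**Figure D5:**
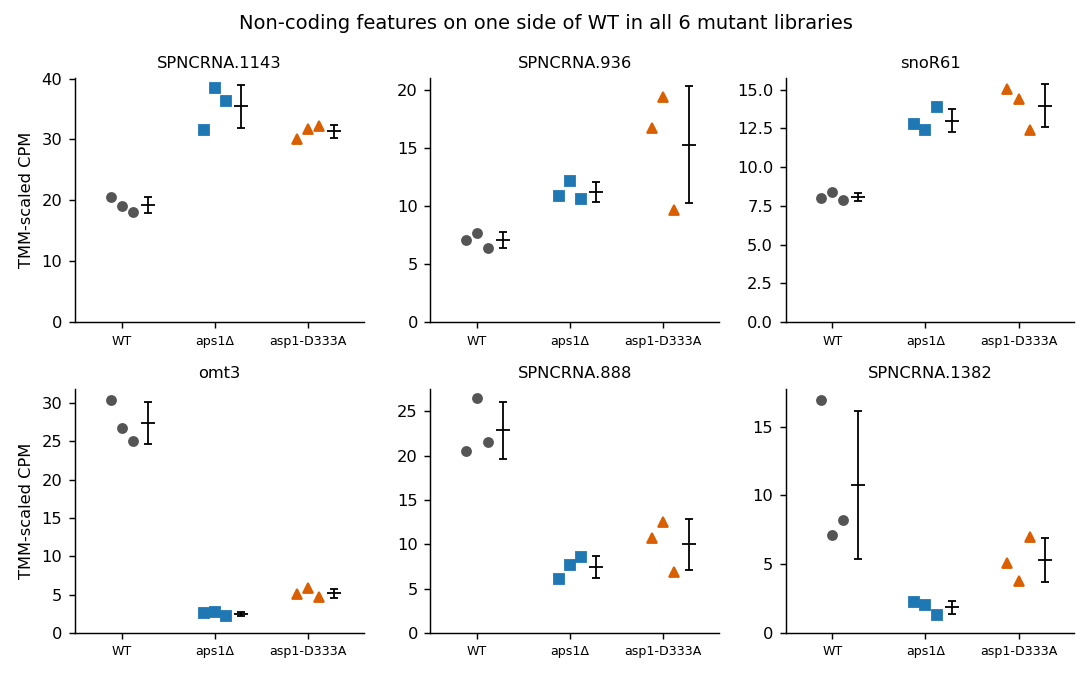
TMM-scaled CPM (vertical axis, from 0) of 6 non-coding features in each library, with symbols and marks as for the coding genes (grey circles WT, blue squares aps1∆, orange triangles asp1-D333A, black mean and SD of 3 libraries). All mutant libraries of omt3 lie below 6 CPM, and WT replicate 4 lies above the other WT libraries for SPNCRNA.1382.

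Chromosomes I, II and III held 65, 57 and 39 of the higher genes and 89, 65 and 37 of the lower genes, among 2267, 1814 and 898 coding genes tested. Of the 352, 28 were direct neighbours of another with the same direction, in 13 runs, and the longest runs had 3 genes. Whether these are more than a random gene order would give was not tested. Beside the urg genes, the other run of 3 was wtf14, wtf15 and pmd1 on chromosome III, all higher; the wtf genes belong to a family of related meiotic drive elements, among which reads may be shared, and pmd1 encodes the leptomycin exporter. Their averages were 0.26, 0.54 and 0.26.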

How the data were processed

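The authors deposited 1 table of whole-number read counts per feature, not normalized, with a column for each of 9 libraries. RNA came from a hot acid phenol extraction, and stranded TruSeq libraries of poly(A)+ RNA were sequenced as read pairs on a HiSeq instrument, per the labels. HISAT2 2.1.0, SAMtools, HTSeq 0.10.0, DESeq2 and the build ASM294v2 are named in the submitters' processing notes, without their roles; strand setting and treatment of multiply matching reads are not given in the sources used here. Names, classes and overlaps came from RefSeq's ASM294v3, which matched 6846 of 6986 identifiers (98.0%). As the builds differ, no coordinates or sequences are given and promoter motifs were not examined. Copies were found with BLAST 2.17.0 (at least 95% identity over 100 nucleotides).

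Counts were fitted in R 4.3.3 with edgeR 4.0.16, after filterByExpr with a minimum count of 10 (839 features removed) and TMM scaling. The fit had a mean for each of the 3 groups over all 9 libraries and robust quasi-likelihood dispersions. Its contrast set the mean of both mutant group means, taken on the log scale, against WT. Each mutant against WT and the mutants against each other were tested in the same fit. A feature was called at a Benjamini-Hochberg adjusted p under 0.05; ± gives the SE of a log2 fold change over 3 libraries per group. The steps were tested on simulated data. Genes were named among features meeting both conditions, having a mean count of 50 or more and no near-identical copy, by the smaller of the changes in the mutants (12 coding and 5 non-coding in each direction), plus up to 4 for each of 24 gene lists, for which no count minimum held. The members and lists were chosen with earlier results of these data known. Alternatives were other scalings, no filter, DESeq2 1.42.0, coding genes only, the mutants as 1 group, a replicate block and leaving out each library.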

Additional observations from a re-analysis of the deposited data

How the results depend on the processing

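Treating the 6 mutant libraries as 1 group changed the counts most: 6 features called higher and 14 lower, 5 and 6 coding genes and 1 and 2 non-coding features with no overlap. By construction the difference between the mutants then counts as spread. Upper-quartile scaling called 1077 features higher, against 676, and of the 161 and 191 coding genes 120 and 139 met both conditions again. Leaving out 1 library in turn gave 358 to 972 features called higher and 700 to 1468 lower, 120 to 231 coding genes higher and 143 to 292 lower without overlap, 25 to 39 and 54 to 74 non-coding features, and 3861 to 4406 calls between the mutants. The lowest counts of calls, 358 and 734 or 366 and 700, came without WT replicate 4 or 5, and 292 lower coding genes came without WT replicate 6; the cause was not tested. Calls held for 10 of 57 named genes under all 17 settings of the average, and 47 lost theirs under at least 1. The difference between the mutants for rst2 was 0.00 and turned to -0.21 with upper-quartile scaling and -0.19 with total counts, where it was called (adjusted p = 0.011 in both, edgeR).

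The mutants share replicate numbers 1 to 3, but same-numbered libraries deviated together only weakly (r of 0.15, 0.061 and -0.13 for replicates 1, 2 and 3), so the numbers were not taken to pair them. With a replicate block among the mutants, 599 and 1085 features were called and 140 and 178 coding and 26 and 58 non-coding features had no overlap. The block on the 6 mutant libraries alone gave 3872 calls between the mutants, against 4113 without it, a setting chosen after seeing the data. At this depth 839 identifiers with few or no counts were not tested.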

Other observations

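Genes of the tricarboxylic acid cycle and pyruvate dehydrogenase, listed after their values were seen, were partly lower. Of 17 genes tested, 11 were called lower on average and none higher, beside 20.1% and 10.9% of coding genes, with a median of -0.34 for the average, -0.07 in aps1∆ and -0.44 in asp1-D333A. Every mutant library lay below WT for 7 of them, beside 3.86% of coding genes. These were aco1 (aconitase), cit1 (citrate synthase), idp1 and idh2 (isocitrate dehydrogenases), mdh1 (malate dehydrogenase), and dld1 and lat1, subunits of pyruvate dehydrogenase. The level of aco1 was 1257, 1319 and 1242 CPM in WT, 916, 1043 and 1079 in aps1∆ and 704, 668 and 630.4 in asp1-D333A, with an average of -0.63 ± 0.07 (SE, adjusted p = 3.54e-05). The level of cit1 was 747, 782 and 745 CPM in WT, 434, 497 and 483 in aps1∆ and 663, 664 and 425 in asp1-D333A; in asp1-D333A replicate 3 lay below replicates 1 and 2. The average was -0.53 ± 0.12 (SE, adjusted p = 0.00618). The pyruvate dehydrogenase genes pda1 and pdb1 and the succinate dehydrogenase genes sdh1, sdh2 and sdh3 and the ketoglutarate dehydrogenase gene kgd1 did not pass the test. The call of idh2 was lost without WT replicate 5 or with the mutants as 1 group (between -0.24 and -0.21).

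Of 8 genes of mitochondrial iron-sulfur cluster assembly, also listed after their values were seen, 4 were called lower, all with no overlap, beside 20.1% and 3.86% of coding genes. They were jac1 (-0.44 ± 0.08 SE, adjusted p = 0.00135), nfs1, the cysteine desulfurase (-0.38 ± 0.08 SE, adjusted p = 0.00266), isa1 (-0.30 ± 0.06 SE, adjusted p = 0.00361) and atm1, an exporter of the inner membrane (-0.20 ± 0.05 SE, adjusted p = 0.0138). Of these, only jac1 passed its own test in both mutants in edgeR. In aps1∆ nfs1 and atm1 did not pass (adjusted p = 0.186 and 0.0831), nor did isa1 in asp1-D333A (adjusted p = 0.121). For isu1, the scaffold, the changes were -0.43 in aps1∆ and 0.45 in asp1-D333A. Also called higher in asp1-D333A were isa2 and isd11 (0.49 and 0.22), at -0.15 and -0.31 in aps1∆. The median over the 8 was -0.16 for the average, -0.27 in aps1∆ and -0.07 in asp1-D333A. The call of atm1 was lost without WT replicate 4 or 5 (between -0.20 and -0.17), and isa1 overlapped WT under 6 settings. A list of 17 proteasome genes, made after their values were seen, held regulatory subunits, the maturation factor gene ump1 and pre10 as the only core subunit. Of the 17, 10 were called lower and 1 higher, beside 20.1% and 10.9% of coding genes. The median was -0.17 for the average, -0.09 in aps1∆ and -0.21 in asp1-D333A. Of the lower ones 5, with pre10 and ump1 among them, had no overlap, beside 3.86%. Of these, rpt2, rpt3 and ump1 lost their call without WT replicate 4 or 5 (between -0.24 and -0.10 over the settings that lost it). The gene pre10, for a core subunit, was at 345, 332 and 316 CPM in WT, 272, 280.5 and 281 in aps1∆ and 214, 213 and 229.9 in asp1-D333A and averaged -0.42 ± 0.05 (SE, adjusted p = 6.79e-05).

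A list of 6 genes, made after their values were seen, held genes of inositol phosphates and polyphosphate and the phosphate transporter gene pho843. Of these 6, 2 were called higher (ipk1 and pho843) and 2 lower, beside 10.9% and 20.1% of coding genes. In this list vtc4 was called lower on average with overlap (-0.24 ± 0.07 SE, adjusted p = 0.0217). Its changes had opposite signs in edgeR, 0.40 in aps1∆ (adjusted p = 0.00571) and -0.89 in asp1-D333A (adjusted p = 1.58e-06). Neither arg82 nor plc1 passed the test. The gene ipk1 was higher in every mutant library. Its product makes inositol hexakisphosphate, the compound on which Asp1 acts. The level was 122, 122 and 120.5 CPM in WT, 145, 171 and 179 in aps1∆ and 192, 193 and 141 in asp1-D333A, the changes were 0.44 in aps1∆ and 0.53 in asp1-D333A, and the average was 0.48 ± 0.10 (SE, adjusted p = 0.00291), lost only with the mutants as 1 group. The exopolyphosphatase gene ppx1 was lower, at -0.37 ± 0.06 (SE, adjusted p = 0.000964). The phosphate transporter gene pho843 was higher in every mutant library, at 0.19 in aps1∆ and 1.46 in asp1-D333A, of which that in aps1∆ did not pass its own test (adjusted p = 0.112), with an average of 0.82 ± 0.07 (SE, adjusted p = 4.35e-06).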
